A study of Homo sapiens with 8 samples.

Results

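The early genes described here are EGR1, EGR2, EGR3, ARC, IER2, IER3, NR4A1, NR4A2, NR4A3 and MYC. They were chosen by name, with earlier results of the same arrays known. Every probe set that the platform annotation assigns to 1 of them alone was read on all 8 arrays. Probe sets annotated to several genes were left out, here and in the lists below. Of the 10 genes, 9 had a probe set annotated to that gene alone (17 probe sets in all), out of 19775 such genes. EGR2 had no probe set annotated to it alone and was not analysed here. Because the choice drew on these values, the levels and differences of the early genes are a description and carry no test.

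The arrays held RNA of HT1080 cells, a human fibrosarcoma line, treated for 18 h. The conditions under 2DG stress were 10 mM 2-deoxy-D-glucose (2DG) with 10 µM compound C, with 10 µM versipelostatin, with 100 µM phenformin, and 2DG alone. The conditions of normal growth were each compound alone at the same dose, and no compound (control). Compounds were given just ahead of 2DG. 2DG is a glucose analogue that blocks glycolysis and protein glycosylation, compound C is a kinase inhibitor best known for inhibiting AMPK, versipelostatin is a macrocyclic microbial product, and phenformin is a biguanide that inhibits mitochondrial respiration. Each of the 8 conditions had 1 Affymetrix Human Genome U133 Plus 2.0 array, so no difference below has a replicate check, a standard deviation or a p-value, and the number of arrays limits the precision. In such bulk RNA, fewer responding cells and less RNA per cell cannot be told apart.

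Immediate early genes are genes whose transcription can be switched on by growth factors, kinase signals or stress without new protein synthesis, usually within minutes to a few hours. Their promoters often carry the CArG box, which serum response factor (SRF) binds together with ERK-activated ETS-family factors, and cAMP response elements, which CREB-family factors bind. Many of the transcripts are short-lived because proteins bind AU-rich elements in their untranslated regions. EGR1, EGR2 and EGR3 are zinc finger transcription factors, NR4A1, NR4A2 and NR4A3 are orphan nuclear receptors, MYC is a transcription factor that pairs with MAX, ARC is a cytoskeleton-associated protein best known from neurons, IER2 is a small nuclear protein, and IER3 is a stress-induced regulator of cell survival.

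Promoter windows of 300 bases (250 before to 50 after the start, RefSeq, GRCh38.p14) are shown for an early gene that differed with each compound under 2DG stress (EGR1), for one that differed with compound C (IER2), and for one that stayed near background (NR4A3). They run 5′ to 3′ on the plus strand at chr5:138465229-138465528, chr19:13150161-13150460 and chr9:99821635-99821934. Capitals mark CArG boxes and the core of a cAMP response element, TGACG, read as TGACG or, on the other strand, as CGTCA.
EGR1: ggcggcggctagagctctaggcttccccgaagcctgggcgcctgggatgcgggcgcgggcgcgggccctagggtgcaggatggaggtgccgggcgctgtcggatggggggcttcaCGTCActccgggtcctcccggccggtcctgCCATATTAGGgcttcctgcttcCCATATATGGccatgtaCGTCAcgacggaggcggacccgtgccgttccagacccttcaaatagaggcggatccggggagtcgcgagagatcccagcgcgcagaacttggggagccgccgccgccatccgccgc
IER2: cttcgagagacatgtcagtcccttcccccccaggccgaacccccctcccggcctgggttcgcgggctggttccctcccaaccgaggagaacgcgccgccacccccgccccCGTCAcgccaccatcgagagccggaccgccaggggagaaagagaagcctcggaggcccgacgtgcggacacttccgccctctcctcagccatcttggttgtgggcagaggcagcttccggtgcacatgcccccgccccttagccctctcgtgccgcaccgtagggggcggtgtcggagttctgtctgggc
NR4A3: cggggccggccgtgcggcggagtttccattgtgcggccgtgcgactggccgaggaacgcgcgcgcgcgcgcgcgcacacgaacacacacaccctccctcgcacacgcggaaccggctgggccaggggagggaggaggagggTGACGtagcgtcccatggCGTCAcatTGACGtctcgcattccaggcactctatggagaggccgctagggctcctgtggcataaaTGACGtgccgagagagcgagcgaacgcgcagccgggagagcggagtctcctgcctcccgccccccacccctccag
The EGR1 window held 2 CArG boxes (CC, a run of 6 A or T, then GG) and 2 matches to TGACG. The IER2 window held 0 CArG boxes and 1 match to TGACG, and the NR4A3 window 0 CArG boxes and 4 matches to TGACG. Among 35116 promoter windows of the same length, 1.29% held a CArG box and 24.6% held TGACG on either strand. Neither of the 2 windows of NR4A1 held either motif, and of 3 windows of EGR2 1 held 1 CArG box and 2 matches to TGACG. The full palindrome TGACGTCA (1.85% of windows), the EGR sites GCGTGGGCG (0.795%) and GCGGGGGCG (5.07%), the NR4A site AAAGGTCA (1.22%), the AP-1 site TGANTCA (7.71%) and TATAAA (11.5%) were in none of the 8 windows of the 5 early genes listed. The MYC and MAX site CACGTG (7.26%) was in 1 EGR2 window. The 5 early genes searched were EGR1, EGR2, IER2, NR4A1 and NR4A3. No window of EGR3, ARC, IER3, NR4A2 or MYC was searched, so their motifs are unknown here. A match is a description of letters, not evidence of a bound site.

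The deposited values are log2 intensities made by the authors with RMA, and each difference is the log2 value on the first array named minus that on the second, so that 1 is 2-fold. The median of an array over its probe sets, without controls, was between 3.12 and 3.28, and a value under that median was taken as not above background. Where 1 of the 2 values fell under it, the difference is a bound (at least so much, or that much or lower). A gene counted as expressed from log2 6 on at least 1 array, which left 8429 genes, and it is represented by its probe set with the highest mean. Of the 9 early genes, EGR1, ARC, IER2, IER3, NR4A2 and MYC passed this limit (6 genes, 8 of 17 probe sets), and EGR3, NR4A1 and NR4A3 did not. ARC passed through the array of 2DG with compound C alone and NR4A2 through that of compound C alone, so both had to differ somewhere, and counts over the 6 genes are not support for a response of the whole group. Of the 6 mesenchymal markers, 5 were at log2 6 or more on each array and S100A4 was between 4.11 and 5.09. The 9 markers of epithelial, blood, melanocyte, liver and endothelial cells were between 1.71 and 4.41.

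The poly-A control transcripts, added to the RNA before labelling, moved with the conditions. Relative to the control array they were up by 1.22 when compound C was present under 2DG stress, by 0.85 for versipelostatin, by 0.67 for phenformin and by 0.35 in 2DG alone, and in normal growth the 3 compounds gave 0.10, 0.05 and 0.28. The hybridization controls moved the same way, up by 0.75, 0.53 and 0.58 for the same compounds under 2DG stress and by 0.21 in 2DG alone. In normal growth they gave 0.17, 0.05 and 0.14. Values scaled on the poly-A controls are therefore an alternative scaling and not a measure of RNA content. Scaling on the poly-A controls takes 0.87, 0.50 and 0.32 off every difference between 2DG with compound C, versipelostatin or phenformin and 2DG alone, and centring each array adds 0.21, 0.23 and 0.28. The median difference of all expressed genes in these 3 comparisons was −0.23, −0.18 and −0.26, and −1.10, −0.68 and −0.58 after poly-A scaling. With that scaling, 190 genes were higher and 4578 lower with compound C under 2DG stress, in place of 702 and 2141, and centring the arrays gave 1007 and 1765. With versipelostatin it gave 134 higher and 2983 lower in place of 345 and 1688, and centring gave 618 and 1247. With phenformin it gave 233 and 2644 in place of 408 and 1836, and centring gave 729 and 1284. The part of the poly-A shift in the results below was not tested. Scaled values are given beside the list counts and beside early gene calls that fall under 2-fold with the scaling. Early gene differences that pass 2-fold downward only with the scaling are not all given. Single listed genes are given unscaled, and those that pass 2-fold upward by less than these amounts do not pass it with the scaling.

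**Figure D1:**
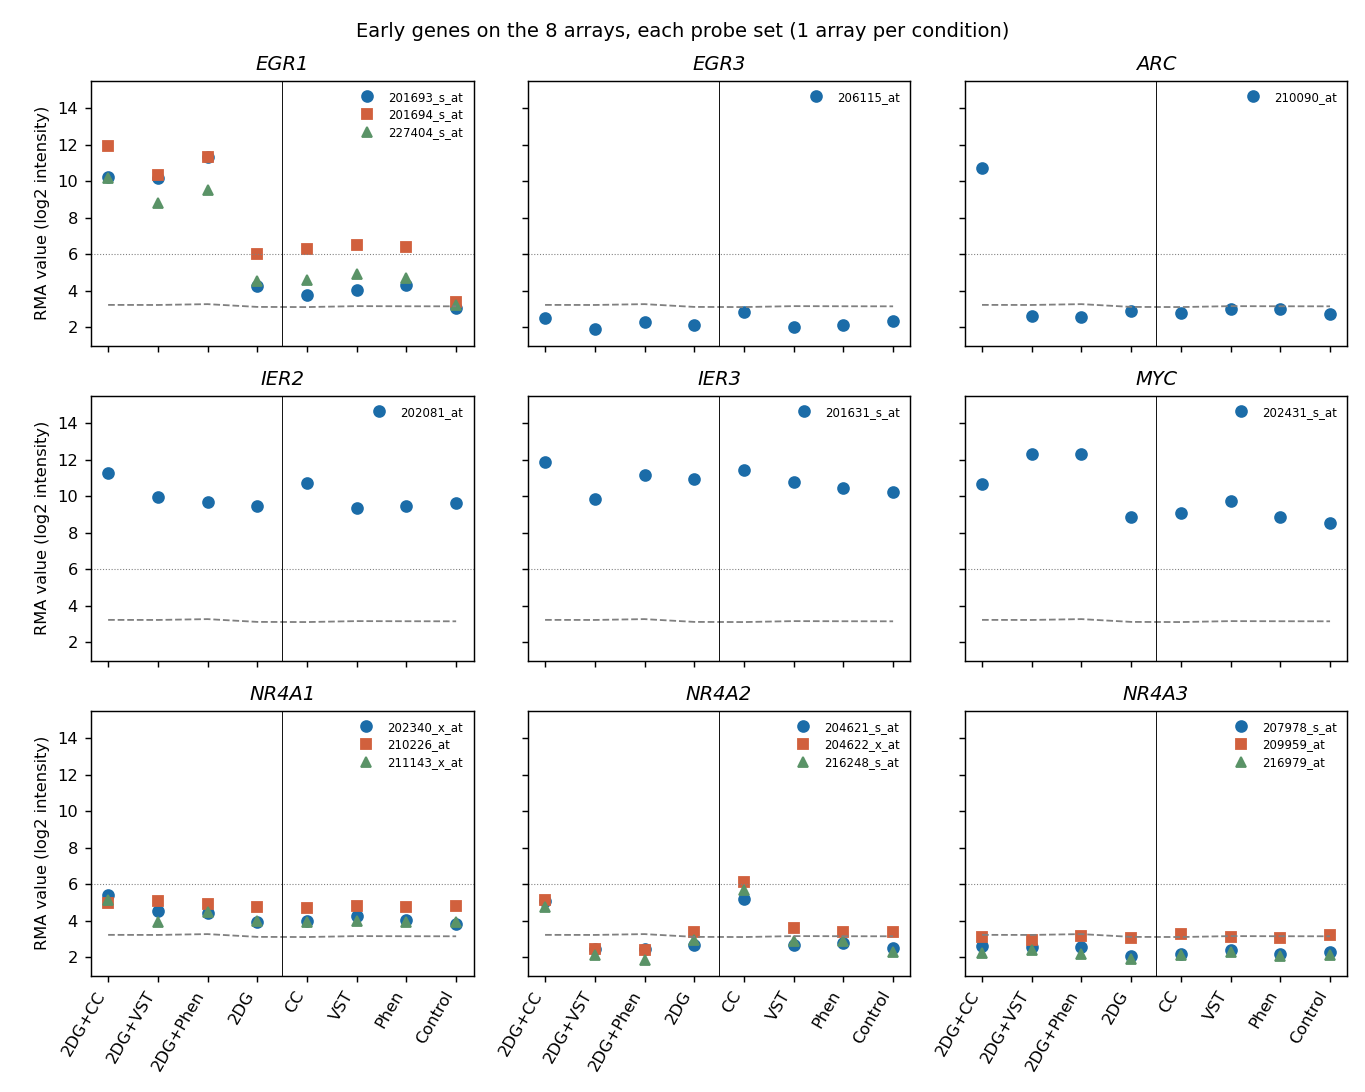
RMA log2 values (y axis) of the 17 probe sets of 9 early genes on the 8 arrays (x axis, 4 arrays with 2DG left of the vertical line, 1 array per condition). The dashed line is the median of each array and the dotted line log2 6. EGR1 was highest on the 3 arrays of 2DG with a compound, ARC was above background on the array of 2DG with compound C, and EGR3 lay below the dashed line throughout.

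EGR1 was highest on the 3 arrays of 2DG with a compound and lowest in the control on each of its probe sets. On the probe set that represents it (201694_s_at) it read 11.92, 10.36 and 11.34 in 2DG plus compound C, versipelostatin or phenformin, and 6.04 in 2DG alone. In normal growth it read 6.32 with compound C, 6.51 with versipelostatin, 6.42 with phenformin and 3.38 in the control. The arrays thus fell on 3 levels: the 3 arrays with 2DG and a compound at the top, the 4 arrays with a single agent between 6.04 and 6.51, and the control near the array median of 3.16.

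Under 2DG stress, compound C left EGR1 5.89 above 2DG alone (59.2-fold), versipelostatin 4.32 (20.0-fold) and phenformin 5.31 (39.6-fold). These differences ranked 3, 2 and 1 from the highest among the 8429 genes. Scaled on the poly-A controls they were 5.02, 3.83 and 4.99. Each single agent was also above the control, compound C by 2.94, versipelostatin by 3.13, phenformin by 3.04 and 2DG by 2.66, differences that rest on a control value close to background. Relative to the same compound in normal growth, adding 2DG gave 5.60 more for compound C, 3.85 for versipelostatin and 4.93 for phenformin. The effect of a compound under 2DG stress exceeded its effect in normal growth by 2.95 for compound C, 1.19 for versipelostatin and 2.27 for phenformin on 201694_s_at. On 227404_s_at the excess was 4.26, 2.52 and 3.49, and on 201693_s_at, from a control value not above background, 5.28, 4.93 and 5.82. Poly-A scaling takes 0.87, 0.50 and 0.32 off the effects of the 3 compounds under 2DG stress and 0.10, 0.05 and 0.28 off those in normal growth. Each excess is therefore smaller with it, and that of versipelostatin on 201694_s_at falls under 2-fold (effects of 3.83 and 3.08). None of these differences was tested.

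The other EGR1 probe sets gave the same direction with other sizes. On 201693_s_at the values were 10.25, 10.18 and 11.34 in 2DG with compound C, versipelostatin and phenformin, against 4.26 in 2DG alone. On 227404_s_at they were 10.21, 8.81 and 9.54, against 4.53 in 2DG alone. The order of the compounds depended on the probe set, since compound C under 2DG stress was 1.57 above versipelostatin on 201694_s_at and 1.40 above it on 227404_s_at but 0.07 above it on 201693_s_at (−0.30 with poly-A scaling), where phenformin was 1.09 above compound C. The 4 arrays with a single agent read between 3.76 and 4.31 on 201693_s_at, against 3.06 in the control, a value not above background. With poly-A scaling the measured differences there were 0.60 for compound C, 0.94 for versipelostatin, 0.97 for phenformin and 0.85 for 2DG, each under 2-fold. Unscaled, those of compound C and versipelostatin were 0.70 and 0.99. On 227404_s_at the single agents read between 4.53 and 4.96, against 3.20 in the control. Each was higher than the control by between 1.33 and 1.75, and 2DG by 0.98 with poly-A scaling. The counts at 2-fold below use 201694_s_at for EGR1.

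EGR3, the second EGR gene with a probe set annotated to it alone, read 2.49, 1.94 and 2.29 in 2DG plus compound C, versipelostatin or phenformin and 2.14 in 2DG alone. Its values in normal growth were 2.84, 2.03 and 2.14 for the same compounds and 2.38 in the control. Each of these 8 values was under the median of its array, so no fold change is given.

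MYC was higher with each compound under 2DG stress. It read 10.67, 12.33 and 12.32 in 2DG plus compound C, versipelostatin or phenformin, against 8.89 in 2DG alone. In normal growth it read 9.10, 9.74 and 8.88 with the same compounds, against 8.53 in the control. Versipelostatin and phenformin under 2DG stress gave nearly the same level, and compound C lay between them and the other 5 arrays. The difference from 2DG alone was 1.78 (3.44-fold) for compound C, 3.45 (10.9-fold) for versipelostatin and 3.44 (10.8-fold) for phenformin. Scaled on the poly-A controls it was 0.92, under 2-fold, with compound C, and 2.95 and 3.12 with versipelostatin and phenformin. Under 2DG stress compound C differed from versipelostatin by −1.66 and from phenformin by −1.65. The order was the opposite for ARC, IER2, IER3 and NR4A2, and for EGR1 on 201694_s_at and 227404_s_at.

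Without the second agent, MYC was 2.30-fold the control with versipelostatin, 1.48-fold with compound C, 1.27-fold with phenformin and 1.28-fold with 2DG. Of these only the difference with versipelostatin reached 2-fold, and the log2 difference of 2DG was 0.00 with poly-A scaling. Against the same compound in normal growth, MYC was 1.57 higher for 2DG plus compound C, 2.59 for 2DG plus versipelostatin and 3.44 for 2DG plus phenformin, and the first of these was 0.45 with poly-A scaling. The compound effect under 2DG stress exceeded that in normal growth by 1.22 for compound C, 2.24 for versipelostatin and 3.09 for phenformin, which was not tested. Poly-A scaling takes 0.87 off the compound C effect under 2DG stress and 0.10 off that in normal growth, so that its excess falls under 2-fold.

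ARC had a signal above background on 1 array. It read 10.75 in 2DG with compound C. The other arrays with 2DG gave 2.64 for versipelostatin, 2.56 for phenformin and 2.92 for 2DG alone, while in normal growth compound C gave 2.82, versipelostatin 3.04, phenformin 3.02 and the control 2.75. The other 7 values were under the medians of their arrays. Under 2DG stress compound C thus left ARC at least 7.62 (at least 197-fold) above 2DG alone, and at least 7.63 above compound C in normal growth. Both bounds rest on 1 probe set (210090_at) on 1 array. Neither 2DG nor compound C alone gave a value above background.

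IER2 and IER3 were well above background on each array. IER2 read 11.30, 9.95 and 9.70 in 2DG plus compound C, versipelostatin or phenformin and 9.47 in 2DG alone. In normal growth the same compounds gave 10.72, 9.35 and 9.46, and the control 9.65. The 2 arrays with compound C were the highest. IER2 was higher with compound C by 1.83 (3.55-fold) under 2DG stress and by 1.07 (2.10-fold) in normal growth. With poly-A scaling these were 0.96 and 0.97, and the second was 0.98 when each array was centred. For versipelostatin and phenformin the differences were 0.48 and 0.23 under 2DG stress (−0.02 and −0.08 with poly-A scaling), and −0.30 and −0.19 in normal growth.

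IER3 read 11.91, 9.84 and 11.17 in 2DG plus compound C, versipelostatin or phenformin and 10.93 in 2DG alone. In normal growth the same compounds gave 11.47, 10.76 and 10.48, and the control 10.25. The array of 2DG with versipelostatin was the lowest of the 8. Under 2DG stress the difference from 2DG alone was 0.97 for compound C, just under 2-fold, −1.10 for versipelostatin and 0.23 for phenformin. Centring the arrays moved the first to 1.19 and the second to −0.87, and poly-A scaling gave 0.10, −1.59 and −0.08. As single agents, the treatments left IER3 above the control by 1.22 for compound C (2.34-fold), 0.52 for versipelostatin, 0.23 for phenformin and 0.69 for 2DG. Compound C under 2DG stress was 2.07 above versipelostatin. The array of 2DG with versipelostatin differed from versipelostatin in normal growth by −0.93, and by −1.73 with poly-A scaling.

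Among the NR4A receptors, NR4A2 was high on the 2 arrays with compound C. On 204622_x_at it read 5.15, 2.45 and 2.42 in 2DG plus compound C, versipelostatin or phenformin and 3.37 in 2DG alone. In normal growth the same compounds gave 6.11, 3.60 and 3.40, and the control 3.37. It was higher with compound C by 1.78 (3.44-fold) under 2DG stress, 0.91 with poly-A scaling, and by 2.74 (6.66-fold) in normal growth, where it ranked 10 of 8429 genes. With compound C, the array with 2DG differed from that without it by −0.95 (−2.07 with poly-A scaling). Versipelostatin and phenformin under 2DG stress gave values not above background, so that their differences from 2DG alone were −0.14 or lower and −0.09 or lower. On the other probe sets NR4A2 was also highest on the 2 arrays with compound C. The difference between these 2 arrays was −0.11 on 204621_s_at and −0.93 on 216248_s_at. With poly-A scaling, 2DG with compound C was 1.51 and 0.96 above 2DG alone on these probe sets, from 2DG values not above background. On 204621_s_at it read 5.07 in 2DG with compound C and 5.17 with compound C, against 2.44 to 2.80 on the other 6 arrays. On 216248_s_at it read 4.78 and 5.71, against 1.85 to 2.95.

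NR4A1 stayed under log2 6, and its probe sets did not move alike. On 202340_x_at it read 5.41, 4.53 and 4.45 in 2DG plus compound C, versipelostatin or phenformin, against 3.92 in 2DG alone, and between 3.82 and 4.26 in normal growth. The difference between 2DG with compound C and 2DG alone was 1.49 on 202340_x_at and 1.12 on 211143_x_at, but 0.24 on 210226_at, the probe set with the highest mean, and 0.62, 0.25 and −0.63 with poly-A scaling. NR4A3 read between 1.93 and 3.29 over its 3 probe sets and 8 arrays, close to or under the array medians. The NR4A probe sets ending in _x_at or _s_at, like those of EGR1, IER3 and MYC, may match several transcripts.

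**Figure D2:**
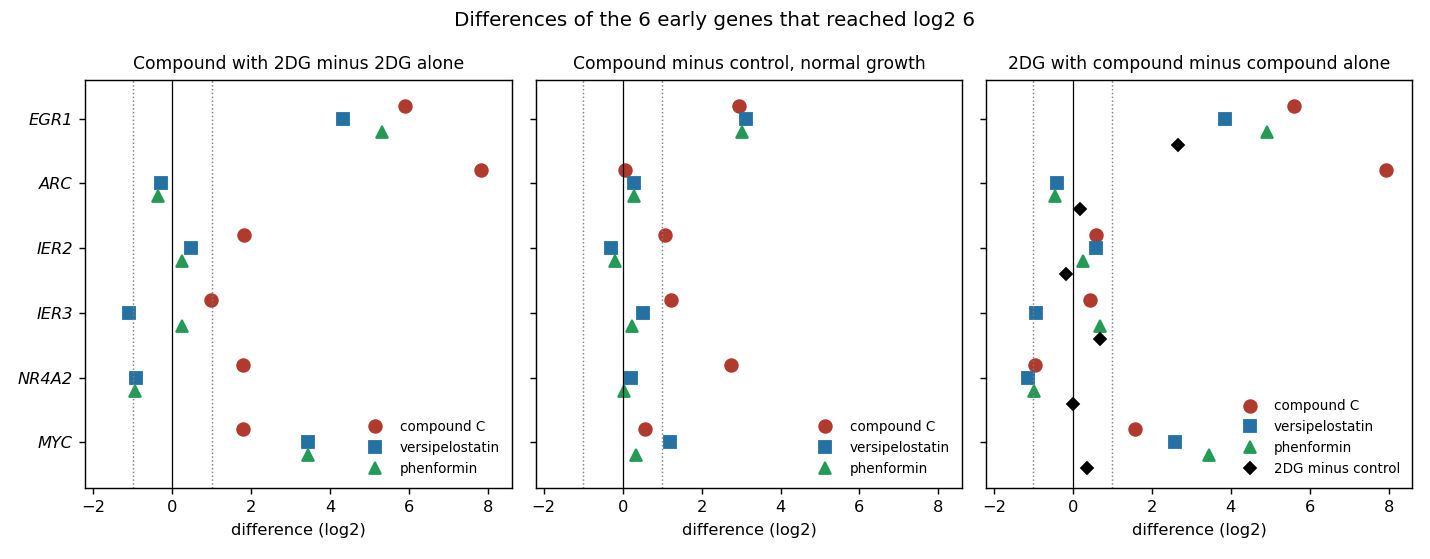
Log2 differences (x axis) of the 6 early genes that reached log2 6 (y axis), for a compound with 2DG minus 2DG alone (left), a compound minus control in normal growth (centre), and 2DG with a compound minus that compound, with 2DG minus control as black diamonds (right). Dotted lines mark 2-fold, and values under the array median are plotted as measured, so that ARC with compound C under 2DG stress is shown at 7.82 and its bound is 7.62.

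Counted at 2-fold, 5 of the 6 expressed early genes (EGR1, ARC, IER2, NR4A2 and MYC) were higher and 0 lower in 2DG with compound C than in 2DG alone, beside 8.33% of all genes higher and 25.4% lower. With versipelostatin 2 were higher (EGR1 and MYC) and 1 lower (IER3), beside 4.09% and 20%, and with phenformin EGR1 and MYC were higher and 0 lower, beside 4.84% and 21.8%. EGR1 and MYC were thus the 2 early genes higher with each of the 3 compounds under 2DG stress, as were 122 genes in all (1.45%). These contrasts were known when the genes were chosen, and nothing is read from the counts against the shares. The 3 comparisons share the array of 2DG alone.

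Against the control, 4 of the 6 were higher with compound C (EGR1, IER2, IER3 and NR4A2), beside 3.88% of genes higher and 2.7% lower. With versipelostatin 2 were higher (EGR1 and MYC), beside 2.46% and 2.48%, with phenformin 1 (EGR1), beside 2.66% and 2.17%, and with 2DG 1 (EGR1), beside 3.06% and 1.9%. None of the 6 was lower by 2-fold in these 4 comparisons, which share the control array. Against the compound alone, 3 were higher in 2DG with compound C (EGR1, ARC and MYC), beside 8.67% and 26.4% lower, and EGR1 and MYC were higher in 2DG with versipelostatin, beside 3.74% and 16.6%, and in 2DG with phenformin, beside 5.59% and 18.9%. NR4A2 measured −1.14 for 2DG with versipelostatin against versipelostatin, from a value not above background that allows only a bound of −0.36 or lower.

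Between compounds under 2DG stress, compound C was above versipelostatin for EGR1, ARC, IER2, IER3 and NR4A2 and below it for MYC (5 and 1 of the 6, beside 12.6% and 15.6% of genes). It was above phenformin for ARC, IER2 and NR4A2 and below it for MYC (3 and 1, beside 11.7% and 13.7%). ARC was at least 7.51 above versipelostatin and at least 7.47 above phenformin, IER2 1.35 and 1.59, and NR4A2 at least 1.92 and at least 1.88. Versipelostatin and phenformin differed by 2-fold for 1 of the 6, IER3, with a difference of −1.33 (versipelostatin minus phenformin; 1.17% and 2.98% of genes were higher and lower). EGR1 was just under 2-fold between them at −0.99, and past it with poly-A scaling (−1.16), with centring (−1.04) and on 201693_s_at as measured (−1.16). MYC differed between them by 0.01. Poly-A scaling takes 0.37 off each difference between compound C and versipelostatin under 2DG stress and 0.55 off each between compound C and phenformin, which brings IER2 to 0.98 against versipelostatin. The compounds are chemically unrelated and the doses differ for phenformin, so these are values side by side.

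Over the 8 arrays EGR1 and MYC followed each other (Pearson r = 0.87), as did ARC and IER2 (0.77), IER2 and NR4A2 (0.74) and IER3 and NR4A2 (0.70), while NR4A2 and MYC had r = −0.43. These correlations are over 8 arrays that share treatments, and that of ARC rests on 1 array. Among 2223 other genes with a log2 range of at least 2, the pattern of EGR1 was nearest to that of ATF3 (r = 0.98), a stress-induced transcription factor, ZNF800 (0.97) and ITPRIP (0.97). ATF3 read 9.88, 9.19 and 10.26 in 2DG plus compound C, versipelostatin or phenformin, against 6.36 in 2DG, and 7.59, 7.31 and 7.19 with the compounds alone, against 5.13 in the control.

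MYC was nearest to MAFF (0.99), a small MAF transcription factor, CREB5 (0.98), a CREB-family factor, and PAWR (0.97), a pro-apoptotic protein. CREB5 read 7.16, 10.07 and 9.82 in 2DG plus compound C, versipelostatin or phenformin, against 5.24 in 2DG alone, and like MYC was lower with compound C than with the other two. IER2 was nearest to CSNK1E (0.96), a casein kinase, CCDC88C (0.96) and RASSF1 (0.96), and CSNK1E read 10.34 in 2DG with compound C and 10.06 with compound C, against 6.37 to 8.10 on the other 6 arrays. IER3 was nearest to ZNF274 (0.94), COG3 (0.91) and MTMR3 (0.91), and NR4A2 to FNDC3A (0.94), MAP6D1 (0.94) and CROCCP2 (0.92). The genes nearest to ARC were LPAR6, PYCARD-AS1 and CLEC4A, which read 6.46, 7.05 and 7.13 in 2DG with compound C and between 1.65 and 2.79 on the other 7 arrays.

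The other immediate early genes were taken from a list of 32, of which 31 had a probe set and 24 were expressed. With compound C under 2DG stress 15 of the 24 were higher than in 2DG alone and 1 was lower (8.33% and 25.4% of all genes), with a list median of 1.32 beside −0.23 for all genes. With versipelostatin 13 were higher and 5 lower (4.09% and 20% of all genes, median 1.17 beside −0.18), and with phenformin 15 and 3 (4.84% and 21.8%, median 1.44 beside −0.26). With poly-A scaling the counts were 8 and 2, 10 and 5, and 15 and 5, and the medians 0.45, 0.67 and 1.12. The genes that led differed between compounds. With compound C they were FOS (an AP-1 subunit), at least 6.91 higher at 10.04 against a 2DG value not above background, GADD45B (a stress sensor, 5.44), ATF3 (3.52) and KLF6 (a zinc finger factor, 2.83). With versipelostatin they were CCN2 (a secreted matricellular protein, 3.89), SGK1 (a kinase, 3.05), GADD45B (2.94) and ATF3 (2.83), and with phenformin CCN2 (4.15), ATF3 (3.90), SGK1 (3.22) and DUSP1 (a MAP kinase phosphatase, 3.16).

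Some of the listed genes were on opposite sides of 2DG alone. FOSL2, an AP-1 subunit, differed by 1.48 for compound C, −2.38 for versipelostatin and −2.46 for phenformin. TRIB1, a pseudokinase, stood at 1.37 for compound C and −1.73 for versipelostatin. By contrast, DUSP4, a MAP kinase phosphatase, was on the same side with each compound, lower than in 2DG alone (−2.60, −1.31 and −1.48). In normal growth 6 of the 24 were higher for compound C, 3 for versipelostatin and 6 for phenformin, and 0 lower. Of all genes 3.88%, 2.46% and 2.66% were higher and 2.7%, 2.48% and 2.17% lower. The list medians were 0.39, 0.27 and 0.54, beside 0.04, −0.02 and −0.03 for all genes. With poly-A scaling the list counts were 4 and 1, 3 and 0, and 5 and 0, and the medians 0.29, 0.23 and 0.26. In 2DG against the control 3 were higher and 1 lower (3.06% and 1.9% of all genes, median 0.03 beside 0.01). With poly-A scaling these were 0 and 4 (median −0.32). ATF3 was above the control by 2.45, 2.18 and 2.06 for compound C, versipelostatin and phenformin and by 1.22 for 2DG.

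**Figure D3:**
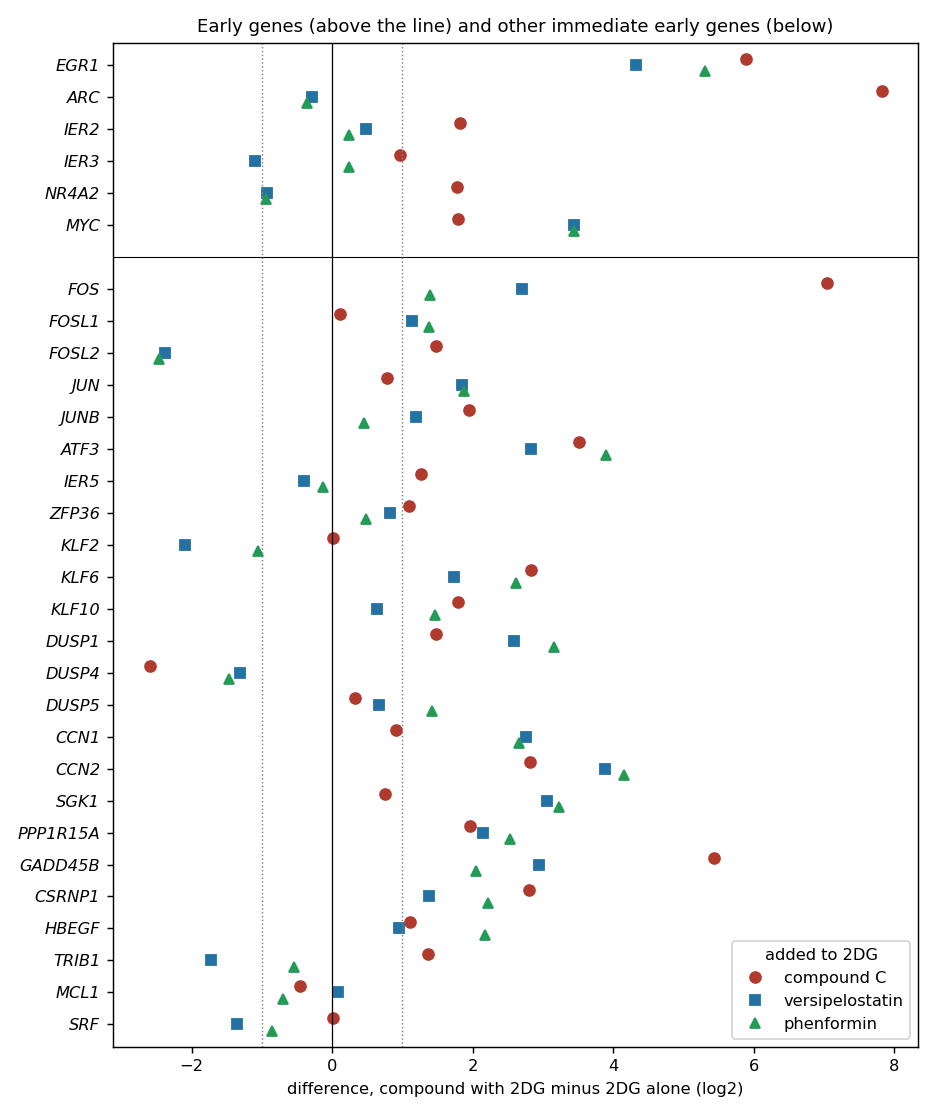
Log2 differences from 2DG alone (x axis) for 2DG with compound C, versipelostatin and phenformin, for the 6 expressed early genes above the line and 24 other immediate early genes below it (y axis). Dotted lines mark 2-fold, and points to the right are higher with the compound. CCN2 and ATF3 were to the right with each compound, and FOSL2 was at 1.48 with compound C and at −2.38 and −2.46 with versipelostatin and phenformin.

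For the upstream route, of 20 listed genes of the ERK, SRF and CREB route, 14 had a probe set and 13 were expressed. Under 2DG stress 2 were higher and 1 lower for compound C (8.33% and 25.4% of all genes), 0 and 2 for versipelostatin (4.09% and 20%), and 0 and 1 for phenformin (4.84% and 21.8%). Poly-A scaling made these 0 and 5, 0 and 5, and 0 and 3. The list had medians of 0.01, −0.16 and −0.15 (−0.86, −0.66 and −0.47 with poly-A scaling, and 0.22, 0.06 and 0.13 with centring). ELK4, an ETS-family partner of SRF, had the largest difference of the list with each compound, at −2.34, −3.10 and −3.18. SRF itself differed by 0.01, −1.36 and −0.85 in the same order of compounds. The array reads these transcripts and not the phosphorylation through which the route signals.

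Proteins that bind AU-rich elements were listed as 8 genes, each expressed. Under 2DG stress 1 was higher with compound C (ZFP36, 1.09), 0 with versipelostatin and 1 with phenformin (ZFP36L1, 1.25), beside 8.33%, 4.09% and 4.84% of all genes, and 0 were lower, beside 25.4%, 20% and 21.8%. Centring made 3, 2 and 1 higher and 0 lower, and poly-A scaling 0 higher and 1, 1 and 0 lower. The list medians were 0.77, −0.03 and 0.18, with −0.10, −0.52 and −0.14 after poly-A scaling and 0.98, 0.20 and 0.47 after centring.

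Of 17 listed partners and corepressors of the EGR, NR4A and MYC proteins, 16 had a probe set and 11 were expressed. Under 2DG stress 4 were higher and 2 lower with compound C (8.33% and 25.4% of all genes), and 1 and 4 with versipelostatin (4.09% and 20%) and with phenformin (4.84% and 21.8%). With poly-A scaling these were 2 and 7, 0 and 6, and 1 and 4, so that for compound C the balance turned. The list medians were −0.29, −0.60 and 0.07, and −1.16, −1.10 and −0.25 with that scaling. With compound C the largest differences were those of ZBTB17, a MYC-binding zinc finger protein (2.43), FBXW7, which targets MYC protein for degradation (2.03), MXD1, a MAX-binding repressor (1.86), and RXRA, a nuclear receptor partner (−1.84). MNT, a MAX-binding repressor, differed by −2.70 for versipelostatin and −2.23 for phenformin, and MXD1 by 1.02 and 2.11. MAX differed by −0.75, −0.15 and −0.57 for compound C, versipelostatin and phenformin.

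For transcripts known as targets of these factors, of 24 listed MYC targets, most of them genes of ribosome and nucleotide production, 19 had a probe set and were expressed. With compound C under 2DG stress 2 were higher (TFRC, the transferrin receptor, by 1.13, and NOP16 by 1.03) and 0 lower, and with versipelostatin and phenformin 1 was higher (TFRC, 1.72 and 1.61) and 2 lower (CAD, an enzyme of pyrimidine synthesis, −1.50 and −1.73, and CDK4, a cell cycle kinase, −1.10 and −1.12). The shares of all genes were 8.33% and 25.4%, 4.09% and 20%, and 4.84% and 21.8%, and poly-A scaling made the MYC target counts 0 and 6, 1 and 4, and 1 and 2. The list medians were 0.05, 0.10 and 0.14, beside −0.23, −0.18 and −0.26 for all genes, with −0.82, −0.40 and −0.18 after poly-A scaling and −0.01 for compound C after quantile normalization. Of 12 reported EGR1 targets, 9 had a probe set and 5 were expressed. With compound C 0 were higher or lower, with versipelostatin 2 were higher (FN1 by 1.17, GDF15 by 1.04) and 1 lower (PDGFA, −1.35), and with phenformin 1 was higher (FN1, 1.09) and 0 lower. With poly-A scaling 0 of the 5 were higher, and 2, 2 and 0 lower. GDF15, a secreted stress factor, was above the control by 3.07, 3.72 and 2.10 for compound C, versipelostatin and phenformin and by 2.07 for 2DG.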

How the data were processed

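RNA of HT1080 cells was labelled from 100 ng and hybridised to Affymetrix arrays, 1 array per condition. The deposited log2 values were made by the authors with RMA, per the labels, which corrects background, normalizes between arrays and summarises probes, so that global shifts between arrays are partly removed. Its software is not given in the sources used here. Differences were taken on these values as they are. Of 54675 probe sets, 62 controls were left out, 41097 carried 1 gene and 1801 several, which named no gene. Symbols were updated by gene identifier against RefSeq. A probe set was expressed from log2 6 on at least 1 array (15503 probe sets, 8429 genes). There were 13 comparisons of 1 array with 1 array, without a test, and a gene was counted from 2-fold. The bound from the array median was chosen after seeing the data.

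The genes named are the 10 early genes, the 3 genes most like each expressed one, and up to 4 genes of each list with the largest difference in a comparison; FOSL2, TRIB1, DUSP4, MAX, and MXD1 and SRF in some comparisons, fell outside this rule and were chosen after their values were seen. The early genes and the lists were chosen with earlier results of these data known. As alternatives, calls were made at 1.5-fold and 3-fold, at expression limits of log2 5, log2 7 and none, after centring, quantile normalization or poly-A scaling, with probe sets of a gene combined by their median, and without the probe sets of ambiguous match. The calculation was tested on simulated data. Promoter windows came from RefSeq (GRCh38.p14). Among the early genes, only windows of EGR1, EGR2, IER2, NR4A1 and NR4A3 were searched for motifs. Scripts ran in Python 3.11.15 with pandas 2.3.3, numpy 2.4.6 and matplotlib 3.10.9.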

Additional observations from a re-analysis of the deposited data

Results flagged for a closer look

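IER3 moved in opposite directions with versipelostatin under the 2 growth conditions. It was 1.10 lower in 2DG with versipelostatin than in 2DG alone and 0.52 higher with versipelostatin than in the control, a difference of −1.61 between the effects. The compounds also opposed each other for IER3 under 2DG stress, with a difference of 0.97 for compound C and −1.10 for versipelostatin, 2.07 apart. With poly-A scaling these were 0.10 and −1.59, so that compound C hardly differed from 2DG alone, and with centring 1.19 and −0.87. Each of these values is from 1 array, and neither difference was tested.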

How the results depend on the processing

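Of the 6 expressed early genes, no difference past 2-fold in the 10 comparisons with 2DG alone, the control or the compound alone turned its sign under the alternatives run. The median of the other immediate early genes in 2DG with compound C against compound C did, at −0.11 with poly-A scaling in place of 1.01. The 5 early genes higher in 2DG with compound C than in 2DG alone became 2 (EGR1 and ARC) with poly-A scaling, where IER2, NR4A2 and MYC had 0.96, 0.91 and 0.92; the scaling subtracts a larger amount on that array. Without the probe sets of ambiguous match only ARC and IER2 of the 6 were left, and then 2 were higher under 2DG stress for compound C, 0 for versipelostatin and 0 for phenformin, since EGR1 and MYC were no longer read. Fold thresholds of 1.5 and 3, the 3 expression limits, centring, quantile normalization and the median over probe sets left those 3 counts within 1.5 times. Without a limit NR4A1 was represented by 210226_at and added no call. In normal growth and in 2DG alone, poly-A scaling changed the genes higher and lower by 2-fold to 245 and 309 in place of 327 and 228 with compound C, to 105 and 550 in place of 224 and 183 with phenformin, and to 115 and 490 in place of 258 and 160 in 2DG, and centring gave 254 and 297 with compound C. No paired analysis was possible because each condition has 1 array and the labels carry no replicate numbers. Dim signals limit EGR3, NR4A1 and NR4A3, and ARC and NR4A2 on most arrays.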
